A study of Mus musculus with 18 samples.

Results

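The small leucine-rich proteoglycan genes followed here are Aspn, Ogn, Omd, Ecm2, Dcn, Bgn, Lum, Fmod, Prelp and Podn, 10 genes chosen by name out of 39179 in the count tables. They were measured by RNA sequencing in MC38, a mouse colon adenocarcinoma cell line of C57BL6 origin, in 6 groups of 3 libraries. An APC-deleted line was measured untreated and after 24 or 48 h of 1 µM doxycycline, and so was an APC-intact line. Apc encodes the scaffold that marks beta-catenin for breakdown, and doxycycline was given to induce a hairpin against Tdo2, an enzyme that breaks down tryptophan to kynurenines. The labels name the hairpin in the treated libraries only, while their protocol speaks of hairpin cells with and without doxycycline, which leaves its presence in untreated cells unsettled. All treated cells carried it, and so hairpin and drug cannot be told apart. The labels speak of biological triplicates but do not name separate cultures. The p-values therefore rest on the spread among these libraries, and that spread may be technical. The number of clones behind each line is not given in the sources used here. Aspn was picked for its lower level after doxycycline, so its folds are given as a description with no test. The other 9 genes were added with earlier results of these data known, so a count over them describes them and supports nothing further.

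Small leucine-rich proteoglycans are secreted matrix proteins whose curved core of leucine-rich repeats binds collagen and sets fibril width and spacing. Several also bind growth factors of the TGF-beta family or cell surface receptors. Decorin (Dcn) and biglycan (Bgn) carry chondroitin or dermatan sulfate chains, while asporin (Aspn) has a stretch of aspartates and no such chain. Lumican (Lum), fibromodulin (Fmod), PRELP (Prelp) and osteomodulin (Omd) form a class linked to keratan sulfate or to binding of heparin or mineral, and osteoglycin (Ogn) belongs to a further class. Podocan (Podn) is a more distant member, and Ecm2 is a related leucine-rich matrix protein. In most tissues these genes are typical of fibroblasts, bone and cartilage cells rather than of epithelium.

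Ecm2, Aspn, Omd and Ogn stand in a row on mouse chromosome 13, all on the plus strand and all inside the span of Cenpp, a centromere protein gene on the minus strand (mm10 chr13:49464027-49652746). Aspn (ENSMUSG00000021388) lies at chr13:49544443-49567557, Ecm2 starts 39.6 kb before it, Omd 38.3 kb after it and Ogn 63.6 kb after it. Their promoter windows are printed because 3 of these neighbours (Aspn, Omd and Ogn) had lower levels after doxycycline while Ecm2 was close to silent. Each window runs from 250 bases before to 50 bases after the RefSeq start (GRCm38.p6, plus strand), with capitals where TATAAA was found on either strand.
Aspn, chr13:49544193-49544492: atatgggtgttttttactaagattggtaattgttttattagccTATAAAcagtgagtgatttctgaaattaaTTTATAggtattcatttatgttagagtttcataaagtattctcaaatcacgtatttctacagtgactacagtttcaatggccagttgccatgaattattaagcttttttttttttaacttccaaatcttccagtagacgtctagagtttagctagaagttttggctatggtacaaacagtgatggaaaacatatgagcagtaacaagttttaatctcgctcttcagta
Omd, chr13:49582212-49582511: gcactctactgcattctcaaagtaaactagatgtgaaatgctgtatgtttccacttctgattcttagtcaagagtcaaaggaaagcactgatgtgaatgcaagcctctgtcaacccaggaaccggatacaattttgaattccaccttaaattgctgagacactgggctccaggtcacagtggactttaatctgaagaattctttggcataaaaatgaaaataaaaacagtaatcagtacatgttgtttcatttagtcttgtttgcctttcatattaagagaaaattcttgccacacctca
Ogn, chr13:49607765-49608064: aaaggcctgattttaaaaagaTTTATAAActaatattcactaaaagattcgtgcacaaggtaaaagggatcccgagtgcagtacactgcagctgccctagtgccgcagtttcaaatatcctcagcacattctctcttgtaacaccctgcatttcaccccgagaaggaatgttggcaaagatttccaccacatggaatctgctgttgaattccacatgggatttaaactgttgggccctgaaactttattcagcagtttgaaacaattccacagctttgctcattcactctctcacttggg
Ecm2, chr13:49504560-49504859: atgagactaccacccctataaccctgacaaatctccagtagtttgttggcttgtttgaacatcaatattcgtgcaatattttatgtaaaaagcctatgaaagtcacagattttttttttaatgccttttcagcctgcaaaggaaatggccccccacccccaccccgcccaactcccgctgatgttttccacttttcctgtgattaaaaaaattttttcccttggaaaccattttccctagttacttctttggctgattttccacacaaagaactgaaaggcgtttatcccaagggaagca
TATAAA matched in the Aspn window at −207 (plus strand) and −178 (minus strand) from the start, and in the Ogn window at −229 (minus strand) and −227 (plus strand), which overlap. It was not in the Omd or Ecm2 window, and 13.6% of all 32851 RefSeq windows of this length hold it on either strand. TGANTCA (7.8% of windows), CACCTG (20.2%) and TTCNNNGAA (8.3%), searched on both strands, were in none of the 4. GC content was 31.0% in the Aspn window, 37.7% for Omd, 42.3% for Ogn and 41.0% for Ecm2, against a median of 52.7% over all windows. The table held windows for 8 of the 10 genes; beside the 4 above these are Bgn, Fmod, Prelp and Podn. CACCTG matched in the second of 2 Podn windows, at −123 and −9 on the minus strand.

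Tdo2, the target of the hairpin, had only 6 to 29 reads in any library, and its log2 fold change after doxycycline did not pass in either line, running from −0.61 ± 0.516 (48 h, APC-deleted) to 0.16 ± 0.453 (48 h, APC-intact), so its loss was not shown at this depth. Apc had 6512 to 7654 reads in untreated APC-deleted libraries and 8973 to 11916 in untreated APC-intact ones (log2 fold change −0.57 ± 0.123, adjusted p = 0.00241). Which stretch of Apc was deleted is not given in the sources used here, so counts over the whole gene check the label only in part. Depth was 71970499 to 111948430 counts in genes per library. By inference from a code in the file names, the libraries came from 2 runs of 9 each. One run held both untreated groups and APC-intact cells at 24 h, and the other held APC-deleted cells at 24 and 48 h and APC-intact cells at 48 h. Hence the lines untreated, the lines at 48 h, APC-intact cells at 24 h against untreated and APC-deleted cells at 48 h against 24 h were compared within a run, and in the difference of the 48 h responses the run cancels. In the other comparisons, run and treatment cannot be told apart. In a principal component analysis 1 APC-intact library (24 h, replicate 1) lay far out on component 4, at 35.1, and 1 APC-deleted library (48 h, replicate 2) on component 3, at −34.7. Against the tissue label, Cdx2 had 0 counts in every library and the intestinal marker list summed to only 3.22 to 7.23 CPM. The fibroblast and mesenchymal list summed to 5306 to 6456 CPM although Thy1 had 1 count in all libraries together.

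Dcn and Bgn made up most of what this gene set produced. On the deposited RPKM scale, which divides by exon length, Dcn ranked first or second in all 6 groups, with group means of 181.8 to 263.6 RPKM. Bgn had 171.9 to 251.6 RPKM. Each supplied 39.6 to 50.8% of the summed RPKM of the 10 genes, and which of them stood first differed between groups. This order depends on the exon length, 6092 bases for Bgn and 2075 for Dcn. In CPM, without division by length, Bgn was above Dcn in every group, with means of 1399 to 2021 against 505 to 721 CPM. Ogn came next in every group at 22.9 to 53.8 RPKM. Omd (0.633 to 1.49 RPKM) and Aspn (0.259 to 1.84 RPKM) shared the next places, followed by Prelp (0.107 to 0.325 RPKM) and Lum (0.0360 to 0.384 RPKM). Ecm2, Fmod and Podn never reached 0.05 RPKM as a group mean. All 10 genes entered the test, but the filter on low counts asked for only 3 libraries over 0.107 CPM. That level was passed in all 18 libraries by 6 genes, in 15 by Lum, in 12 by Podn, in 9 by Ecm2 and in 3 by Fmod. The 3 libraries in which Lum missed it were all from treated APC-intact cells, and Podn missed it in all 3 untreated APC-intact libraries. The 3 libraries in which Fmod passed were all untreated, so Fmod entered the doxycycline comparisons only through the untreated groups.

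**Figure D1:**
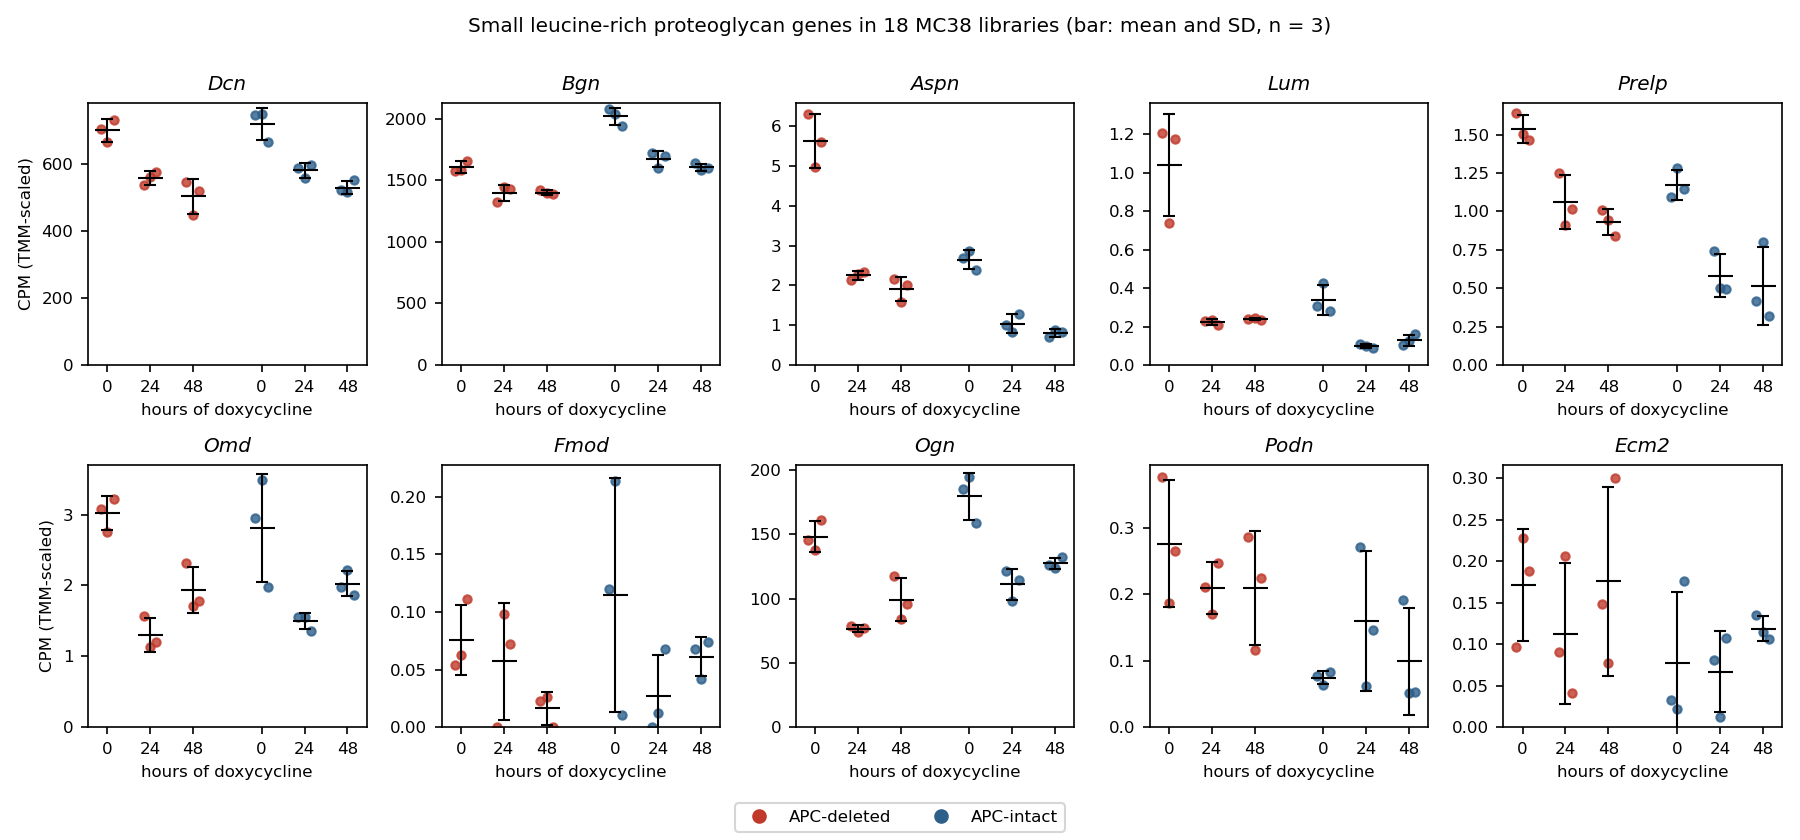
CPM with TMM factors in each library (points) and the mean with SD of 3 libraries (bars) for the 10 genes, at 0, 24 and 48 h of doxycycline in APC-deleted (left of each panel) and APC-intact cells (right). In both lines the untreated points of Dcn, Bgn, Aspn, Lum, Prelp and Ogn lie above all treated points, while Fmod, Podn and Ecm2 have 35 reads or fewer per library and a wide spread. Aspn was picked for its lower level after doxycycline, and Prelp did not pass the test in APC-deleted cells. The share of all genes with points so separated is not given here.

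Aspn comes first of the decorin-like genes, and its lower level in treated cells is what it was picked for. In APC-deleted cells Aspn had 6.31, 4.96 and 5.61 CPM in the untreated libraries, 2.12, 2.29 and 2.33 CPM at 24 h and 2.15, 1.58 and 2.02 CPM at 48 h. In APC-intact cells it had 2.67, 2.86 and 2.39 CPM untreated, 1.00, 0.823 and 1.28 CPM at 24 h and 0.699, 0.875 and 0.839 CPM at 48 h. No treated library reached the lowest untreated library of its line, and all treated APC-deleted libraries lay under all untreated APC-intact ones. In such bulk libraries fewer cells of a type and less RNA per cell cannot be told apart. The log2 fold change against untreated was −1.32 ± 0.154 (SE, n = 3 per group) at 24 h and −1.55 ± 0.157 at 48 h in APC-deleted cells. It was −1.34 ± 0.164 and −1.71 ± 0.167 in APC-intact cells. In absolute counts this gene is modest, with 478 to 585 reads in untreated APC-deleted libraries and 62 to 84 in APC-intact libraries at 48 h.

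Dcn (mm10 chr10:97479500-97518162, plus strand), whose product binds collagen fibrils and TGF-beta, fell in both lines at both times, by a small amount on a high level. It had 707, 666 and 733 CPM in untreated APC-deleted libraries, 538, 561 and 578 CPM at 24 h and 548, 447 and 520 CPM at 48 h. In APC-intact cells Dcn had 747, 750 and 666 CPM untreated, 588, 558 and 599 CPM at 24 h and 522, 517 and 553 CPM at 48 h. Every treated library was under every untreated library of its line. Dcn changed by a log2 fold of −0.33 ± 0.067 at 24 h (adjusted p = 0.00528) and −0.47 ± 0.067 at 48 h (adjusted p = 0.000127) in APC-deleted cells. In APC-intact cells it was −0.31 ± 0.067 (adjusted p = 0.00826) and −0.44 ± 0.067 (adjusted p = 0.000189). The APC-intact call at 24 h was lost without untreated replicate 1 (adjusted p = 0.0634, 0.00457 to 0.0634 when each library was left out in turn).

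Bgn (chrX:73483602-73495933, plus strand), a proteoglycan with a pair of chains that is also a ligand of Toll-like receptors, showed the smallest of the called changes. It had 1576, 1587 and 1661 CPM in untreated APC-deleted libraries, 1324, 1445 and 1427 CPM at 24 h and 1423, 1395 and 1387 CPM at 48 h. In APC-intact cells Bgn had 2078, 2044 and 1940 CPM untreated, 1721, 1601 and 1697 CPM at 24 h and 1639, 1581 and 1598 CPM at 48 h. The groups did not overlap in either line. Bgn fell in log2 CPM by 0.20 ± 0.047 after 24 h (adjusted p = 0.0146) and also by 0.20 ± 0.047 after 48 h (adjusted p = 0.0103) in APC-deleted cells, and by 0.27 ± 0.047 (adjusted p = 0.00137) and then 0.33 ± 0.047 (adjusted p = 9.9e-05) in APC-intact cells. The APC-deleted call at 24 h was lost without untreated replicate 3 (adjusted p = 0.0768) or 24 h replicate 1 (adjusted p = 0.0745).

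Lum (chr10:97565501-97572703, plus strand), the keratan sulfate proteoglycan of cornea and other connective tissue, had the steepest called fold changes at one of the lower levels. In APC-deleted cells 112, 71 and 106 reads in the untreated libraries stood against 23, 26 and 20 reads at 24 h and 21, 19 and 22 reads at 48 h. In APC-intact cells there were 28, 40 and 27 reads untreated, 8, 8 and 9 reads at 24 h and 9, 12 and 15 reads at 48 h. The treated and untreated counts stood clear of each other in both lines, though with under 30 reads in each treated library the size of the change is loosely fixed. In log2 terms Lum changed by −2.21 ± 0.263 at 24 h (adjusted p = 3.5e-05) and −2.10 ± 0.265 at 48 h (adjusted p = 3.92e-05) in APC-deleted cells. In APC-intact cells it was −1.78 ± 0.311 (adjusted p = 0.00143) and −1.38 ± 0.294 (adjusted p = 0.00463).

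Omd (chr13:49582766-49592609), a mineral-binding protein of bone, was lowest at 24 h in both lines. It had 3.08, 2.76 and 3.23 CPM in untreated APC-deleted libraries, 1.57, 1.13 and 1.20 CPM at 24 h and 2.31, 1.71 and 1.78 CPM at 48 h. In APC-intact cells Omd had 2.96, 3.49 and 1.98 CPM untreated, 1.56, 1.56 and 1.36 CPM at 24 h and 1.99, 2.22 and 1.87 CPM at 48 h. Treated and untreated libraries were apart except in APC-intact cells at 48 h, where untreated replicate 3 lay within the treated range. Omd fell by 1.22 ± 0.186 at 24 h (adjusted p = 0.000471), then by 0.64 ± 0.183 at 48 h (adjusted p = 0.0286) in APC-deleted cells, and by 0.91 ± 0.186 at 24 h (adjusted p = 0.00516) in APC-intact cells, on the log2 scale. At 48 h in APC-intact cells the log2 fold change of −0.47 ± 0.182 did not pass (adjusted p = 0.0985), but it did without untreated replicate 3 (−0.68, adjusted p = 0.0177). The APC-deleted call at 48 h was lost without any 1 of 4 libraries, namely untreated replicates 1 (adjusted p = 0.0822) and 3 (0.0855) and 48 h replicates 2 (0.0553) and 3 (0.103), and the APC-intact call at 24 h without untreated replicate 2 (0.0501).

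Prelp (chr1:133910304-133921414, minus strand), whose product anchors basement membranes to connective tissue through heparan sulfate, fell in APC-intact cells. It had 1.64, 1.51 and 1.46 CPM in untreated APC-deleted libraries, 1.25, 0.915 and 1.01 CPM at 24 h and 1.01, 0.946 and 0.837 CPM at 48 h. In APC-intact cells Prelp had 1.09, 1.28 and 1.147 CPM untreated, 0.745, 0.504 and 0.496 CPM at 24 h and 0.417, 0.802 and 0.319 CPM at 48 h. The treated libraries were all under the untreated ones in each line. Prelp in APC-intact cells had a log2 fold change of −1.02 ± 0.257 at 24 h (adjusted p = 0.0218) and −1.19 ± 0.257 at 48 h (adjusted p = 0.00497). In APC-deleted cells it was −0.54 ± 0.242 (adjusted p = 0.223) and −0.72 ± 0.246 (adjusted p = 0.0644), neither past the threshold of 0.05. The APC-intact call at 24 h was lost without untreated replicate 1 (adjusted p = 0.0633) or 2 (0.102) or 24 h replicate 2 (0.0553) or 3 (0.0878).

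Ogn (chr13:49608071-49624500), a matrix protein first described in bone and vessel wall, fell in both lines at both times, more at 24 h than at 48 h by its point estimates. It had 145, 138 and 161 CPM in untreated APC-deleted libraries, 79.0, 73.7 and 77.5 CPM at 24 h and 117.5, 84.2 and 95.8 CPM at 48 h. In APC-intact cells Ogn had 185, 195 and 159 CPM untreated, 121.5, 97.95 and 114 CPM at 24 h and 126.5, 124 and 132 CPM at 48 h. Untreated and treated libraries did not overlap, and the 24 h and 48 h libraries of APC-deleted cells did not overlap either. Ogn had a log2 fold change of −0.95 ± 0.104 at 24 h (adjusted p = 2.77e-05) and −0.58 ± 0.103 at 48 h (adjusted p = 0.00144) in APC-deleted cells. In APC-intact cells it was −0.69 ± 0.103 (adjusted p = 0.000476) and −0.49 ± 0.103 (adjusted p = 0.0045).

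Fmod, Podn and Ecm2 were near the limit of detection. Fmod had 0 to 20 reads per library, with 0 in 3 treated libraries, where the level allowed by a count of 0 is that of 3 reads. Podn had 5 to 35 reads and Ecm2 1 to 28 reads. None of these genes passed the test after doxycycline, at adjusted p from 0.247 (Fmod, APC-deleted cells at 48 h) to 0.969 (Ecm2, the same comparison), and their intervals were wide. For Ecm2 at 48 h in APC-deleted cells the 95% interval of the fold ran from 0.409 to 2.65. At this depth a change of the size seen for Dcn or Bgn was not detectable in them.

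**Figure D2:**
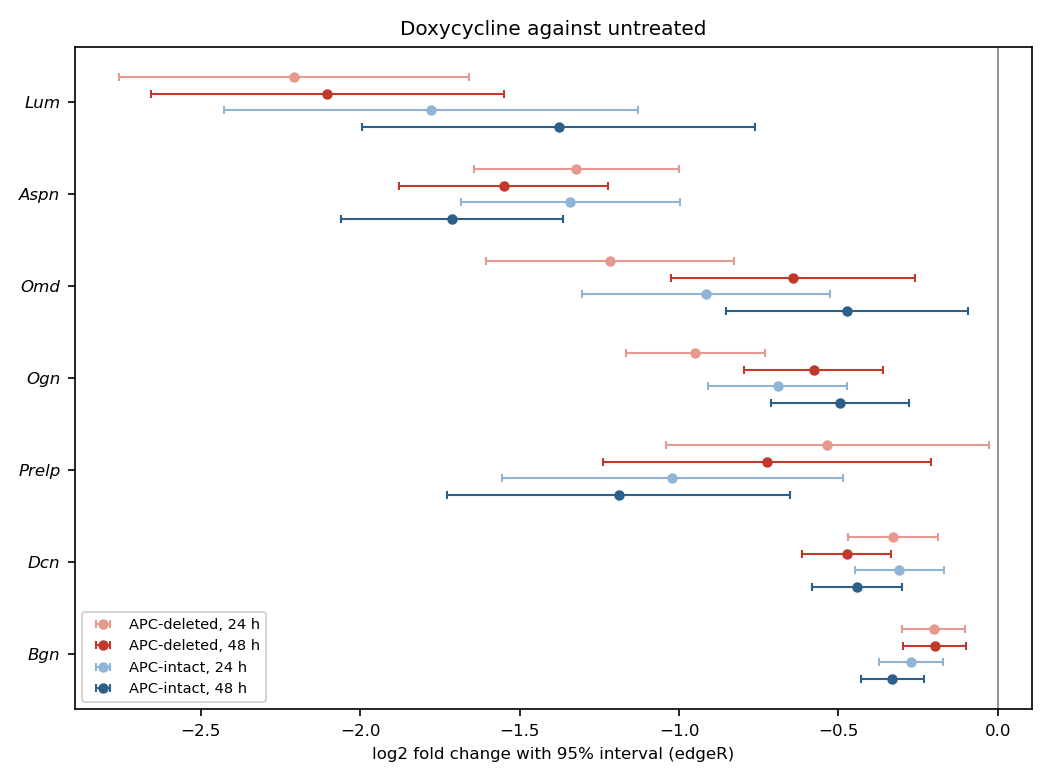
The log2 fold change of doxycycline against untreated with its 95% interval from edgeR (n = 3 libraries per group) for 7 genes, at 24 and 48 h in APC-deleted (red) and APC-intact cells (blue). The values run from −2.21 for Lum to −0.20 for Bgn, and every interval drawn lies under 0, although not all pass after adjustment. Aspn was picked for its lower level after doxycycline, so the place of its intervals follows from that choice and is no test. Fmod, Podn and Ecm2, near the limit of detection, are not drawn.

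Counted over the 9 genes other than Aspn, 5 were lower and 0 higher in APC-deleted cells at 24 h, where 5.85% of the 15006 genes tested were called, 2.08% higher and 3.77% lower. At 48 h 5 were lower and 0 higher, with 11% of all genes called, 4.52% higher and 6.49% lower. In APC-intact cells 6 were lower and 0 higher at 24 h, with 5.64% called (1.39% higher, 4.25% lower), and 5 were lower and 0 higher at 48 h, with 11.3% called (3.81% higher, 7.54% lower). Ogn, Dcn, Bgn and Lum were lower in all 4 of these comparisons, Omd in 3, Prelp in 2 and Fmod, Podn and Ecm2 in none. Fitted to only the groups compared, the number of called genes among the 9 was 2 at 24 h in APC-intact cells and 3 at 48 h in APC-deleted cells. The 24 h and 48 h comparisons of a line share their untreated libraries, so they are not independent of each other. Reads outside annotated genes made up 4.82% ± 0.153 (SD, n = 3) untreated, 5.43% ± 0.141 at 24 h and 5.67% ± 0.423 at 48 h in APC-deleted cells, and 5.56% ± 0.490, 6.21% ± 0.541 and 6.59% ± 0.377 in APC-intact cells. The summed level of the fibroblast and mesenchymal list was 6145 to 6456 CPM untreated, 5306 to 5678 CPM at 24 h and 5759 to 5889 CPM at 48 h in APC-deleted cells. In APC-intact cells the sum was 5904 to 6338, 5380 to 5672 and 5593 to 5713 CPM. Of its 11 genes tested, 4 were lower and 0 higher at 24 h and 2 lower and 1 higher at 48 h in APC-deleted cells. In APC-intact cells 3 were lower and 0 higher at 24 h and 5 lower and 1 higher at 48 h. The gene called higher was Zeb1 in both lines. The sum of the osteoblast and cartilage list was higher after doxycycline instead. It was 135.7 to 143.4, 165.8 to 169 and 168.3 to 185.8 CPM in APC-deleted cells and 123.7 to 139.9, 155.6 to 165.5 and 168.3 to 176.4 CPM in APC-intact cells. In that list Sox9 was higher at both times and Runx2 at 48 h, with Bglap, Ibsp, Col2a1, Comp and Acan near 0. The sum is carried by Sox9 and Runx2, which averaged 65.34 and 73.48 CPM in untreated APC-deleted cells. Sp7, the remaining gene tested, was not called. Its log2 fold change at 24 and 48 h was −0.61 ± 0.5235 and −0.58 ± 0.5155 in APC-intact cells, and −0.18 ± 0.5007 and 0.05 ± 0.5002 in APC-deleted cells. The haematopoietic list summed to 18.5 to 23.4 CPM untreated, 15.4 to 16.5 CPM at 24 h and 13.3 to 18.97 CPM at 48 h in APC-deleted cells, and to 15.5 to 17.6, 11.9 to 12.3 and 10.5 to 11.5 CPM in APC-intact cells. Of its 2 genes tested, Cd68, a lysosomal protein abundant in macrophages, fell in all 4 comparisons, by 0.40 to 0.60 on the log2 scale. Cd68 made up most of the sum, averaging 15.25 CPM in untreated APC-intact cells. The other gene tested, Lyz2, did not pass in any of the 4. Its values ran from −0.58 ± 0.202 (48 h, APC-intact, adjusted p = 0.0687) to 0.06 ± 0.222 (48 h, APC-deleted, adjusted p = 0.898). Ptprc, the pan-leukocyte marker, had 0 to 4 reads per library. The endothelial list summed to 3.05 to 6.37 CPM over all libraries, with 0 of 3 tested genes called after doxycycline. The part of these shifts in the results was not tested.

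Between the lines, the proteoglycan genes did not share a direction. Without doxycycline, Lum was higher in APC-deleted cells, at 1.21, 0.737 and 1.18 CPM against 0.306, 0.427 and 0.279 CPM in APC-intact cells, with no overlap. Its log2 fold change was 1.62 ± 0.254 (adjusted p = 6.62e-05). Podn was higher too, on few reads, with 35, 18 and 24 in APC-deleted libraries against 7, 6 and 8 in APC-intact libraries. Its log2 fold change was 1.87 ± 0.540 (adjusted p = 0.0135), lost without APC-deleted replicate 1 (0.0625) or APC-intact replicate 2 (0.0539). Of these libraries, Podn passed the filter level in the 3 APC-deleted ones and in 0 APC-intact ones. Within this comparison it thus passed only in the group where it is high, and its call is a description. Aspn, not tested here, had a log2 fold change of 1.09 ± 0.153, with all APC-deleted libraries at or above 4.96 CPM and all APC-intact libraries at or under 2.86 CPM. Bgn was lower in APC-deleted cells, by 0.33 ± 0.047 on the log2 scale (adjusted p = 2.35e-05), from libraries that did not overlap. Ogn, at −0.28 ± 0.103, missed the threshold (adjusted p = 0.0523) and passed it without APC-intact replicate 3 (0.0215) or APC-deleted replicate 3 (0.0416). Dcn differed by −0.04 ± 0.067, with a 95% interval of −0.18 to 0.10, and Omd by 0.10 ± 0.180. In all, 2 of the 9 genes were higher, with Podn 1 of these 2, and 1 lower, beside 27.3% of all genes called, 13.4% higher and 13.8% lower. Without APC-intact replicate 3 the count of called genes was 5.

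At 48 h of doxycycline, again within a run, Bgn and Ogn were lower in APC-deleted cells and Lum and Prelp were higher, 2 of the 9 genes each way beside 34.7% of all genes called, 17.8% higher and 16.8% lower. Bgn differed by −0.20 ± 0.047 (adjusted p = 0.00293) and Ogn by −0.36 ± 0.103 (adjusted p = 0.0105) on the log2 scale. The Ogn call was lost without APC-deleted 48 h replicate 2 (adjusted p = 0.0627), which lay far out on component 3 and had the lowest Ogn of its group, at 84.2 CPM. Prelp differed by 0.85 ± 0.260 (adjusted p = 0.0149), a call lost without APC-intact replicate 1 (0.0713) or 3 (0.0925). Lum differed by 0.89 ± 0.305 (adjusted p = 0.0282), lost without any 1 library except APC-intact replicate 3 (adjusted p = 0.0270 to 0.101). Without APC-deleted replicate 2, 2 genes were called in place of 4, and likewise with only the groups compared. Aspn had a log2 fold change of 1.25 ± 0.169, near its value without doxycycline.

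**Figure D3:**
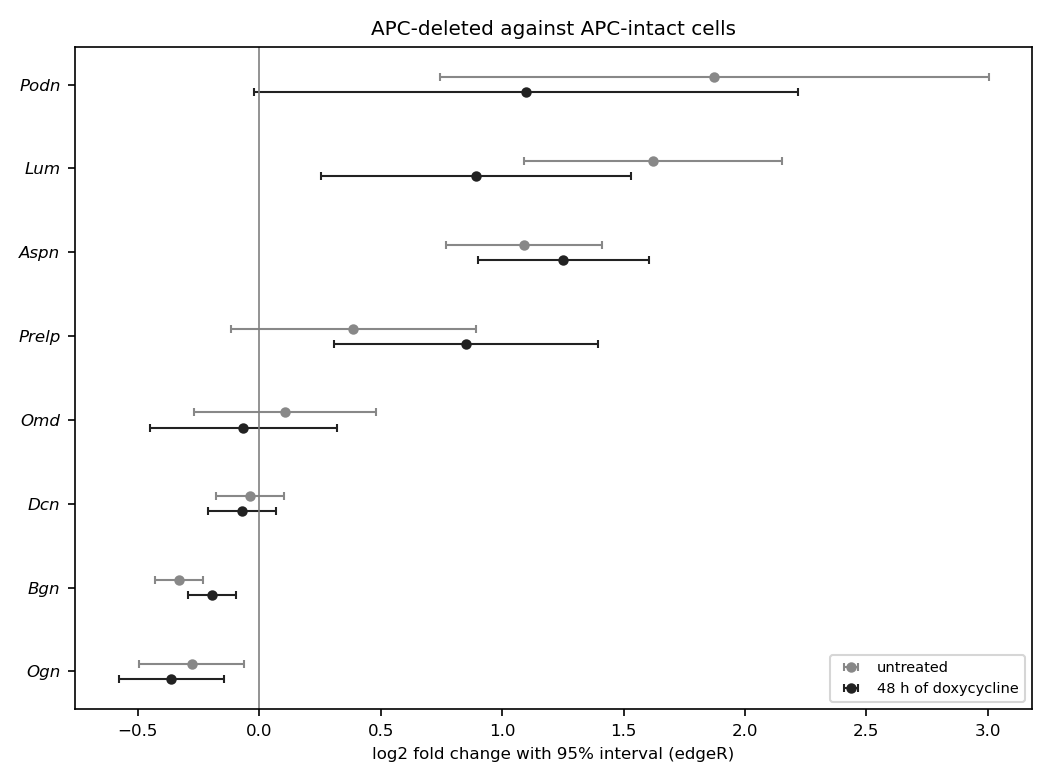
The log2 fold change of APC-deleted against APC-intact cells with its 95% interval from edgeR (n = 3 libraries per group) for 8 genes, untreated (grey) and at 48 h of doxycycline (black). Lum and Aspn lie to the right of 0 and Bgn and Ogn to the left at both times, and the intervals of Dcn and Omd span 0.

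The response to doxycycline was not shown to differ between the lines for any of the 9 genes. In the interaction fit 0 of 9 passed at 24 h and 0 of 9 at 48 h, with 0 under an unadjusted p of 0.05 and 0 in DESeq2 at either time, beside 0.00666% and 0.0267% of all genes called. The difference of the log2 responses (APC-deleted minus APC-intact) at 48 h was −0.73 ± 0.402 for Lum, with a 95% interval of −1.57 to 0.11, and −0.03 ± 0.095 for Dcn, from −0.23 to 0.17. For Bgn it was 0.13 ± 0.067, from −0.01 to 0.27. For Aspn it was 0.02 ± 0.216 at 24 h and 0.16 ± 0.225 at 48 h. Between the times in APC-deleted cells, 48 h against 24 h, 0 of the 9 genes passed, 3 had an unadjusted p under 0.05, and 0.52% of all genes were called, 0.0733% higher and 0.446% lower. The estimates there were 0.37 ± 0.103 for Ogn (adjusted p = 0.165) and 0.57 ± 0.188 for Omd (adjusted p = 0.288), whose 48 h libraries all lay above their 24 h libraries, and −0.15 ± 0.067 for Dcn (adjusted p = 0.536). Ogn passed in DESeq2, and in edgeR without APC-deleted 48 h replicate 2 (0.47, adjusted p = 0.0319).

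Omd and Ogn, next to Aspn, fell after doxycycline as given above. Within 500 kb of Aspn 15 genes were tested, 11 of them outside the proteoglycan set. Of those 11, 0 were called in APC-deleted cells at 24 h and 1 at 48 h, and 1 at each time in APC-intact cells, which was Fgd3 each time, a guanine exchange factor for Cdc42. Beside the 5.64 to 11.3% of all genes called in these comparisons, such counts say nothing particular about the neighbourhood. Fgd3 fell by 0.25 ± 0.062 (adjusted p = 0.0125) at 48 h in APC-deleted cells and by 0.22 ± 0.063 at 24 h (adjusted p = 0.0465) and again 0.22 ± 0.063 at 48 h (adjusted p = 0.0298) in APC-intact cells, on the log2 scale. Cenpp, the gene that spans the cluster, averaged 8.63 ± 0.525 CPM untreated, 7.28 ± 0.264 CPM at 24 h and 7.93 ± 1.16 CPM at 48 h in APC-deleted cells (SD, n = 3), and 8.48 ± 0.296, 7.11 ± 1.18 and 8.02 ± 0.513 CPM in APC-intact cells. Its log2 fold change at 24 h was −0.25 ± 0.109 in APC-deleted cells (adjusted p = 0.2115) and −0.25 ± 0.110 in APC-intact cells (adjusted p = 0.211). Use of strand in the counting is not given in the sources used here, and Aspn shares 7 of 2354 exon bases with Cenpp while Omd, Ogn and Ecm2 share 0 (GENCODE M21). Unspliced Cenpp reads that cross these exons cannot be told apart from reads of the 4 genes, which bears most on Ecm2, Omd and Aspn with their low counts. Prelp overlaps the antisense gene Gm15851 over 350 exon bases, but that gene had only 4 reads in all libraries.

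**Figure D4:**
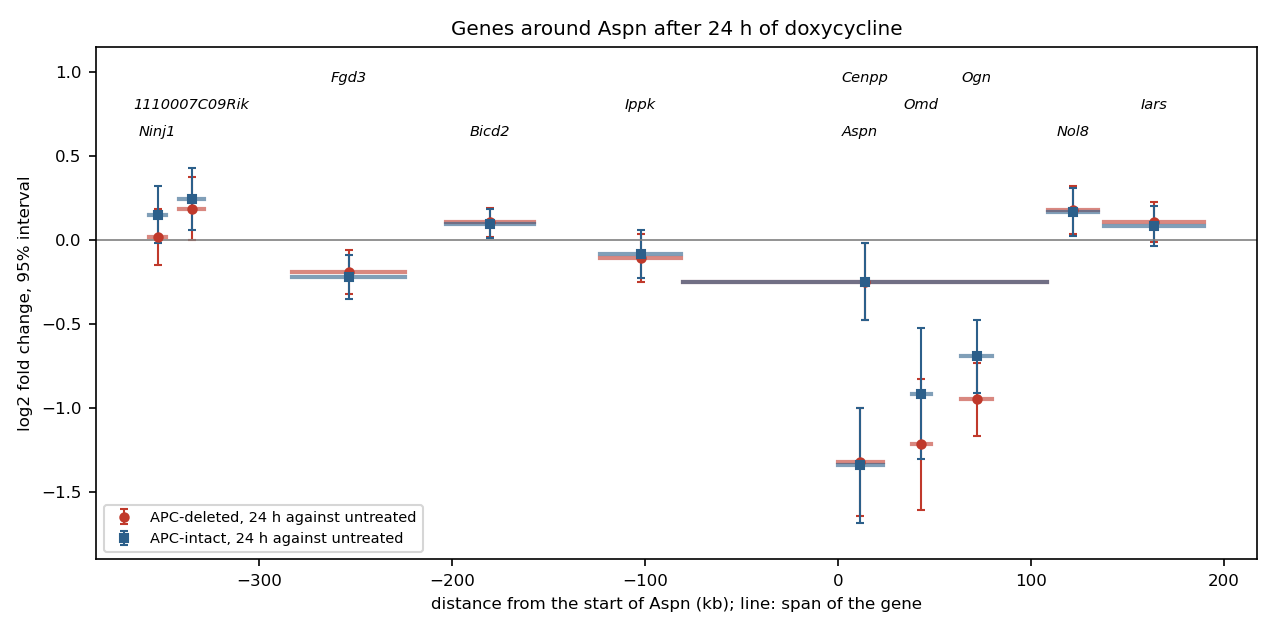
The log2 fold change with its 95% interval at 24 h of doxycycline against untreated (edgeR, n = 3 libraries per group) for genes around Aspn, by distance from the start of Aspn in kb. Horizontal lines are gene spans, red is APC-deleted and blue APC-intact; Aspn, Omd and Ogn lie between −1.34 and −0.69, whereas Cenpp, which spans them, is at −0.25 and the outer genes lie between −0.22 and 0.24.

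Over the 18 libraries Lum and Prelp followed Aspn most closely within the set, with a Pearson correlation of log2 CPM of 0.94 and 0.89, while Bgn did not (0.07). Ogn went with Bgn (0.85), Omd (0.85) and Dcn (0.76). These correlations share the libraries, their depth, the difference between the lines and that between treated and untreated cells. Aspn was picked for its lower level in treated cells, so its correlations, here and with the genes below, are a description. Among 11729 other genes of at least 1 CPM in their highest group, the most like Aspn were Lgals9, a galectin (0.97), Grem1, a secreted antagonist of bone morphogenetic proteins (0.97), Prmt5, an arginine methyltransferase (0.97), Rrm2, a ribonucleotide reductase subunit (0.96), and St3gal1, a sialyltransferase (0.96). Lgals9 averaged 275.1 ± 16.9 CPM untreated, 217.1 ± 9.72 CPM at 24 h and 211.8 ± 3.48 CPM at 48 h in APC-deleted cells, and 222.9 ± 8.66, 171.2 ± 8.01 and 157.6 ± 1.80 CPM in APC-intact cells. Grem1 averaged 827.4 ± 64.9, 687.9 ± 20.4 and 643.6 ± 39.1 CPM in APC-deleted cells and 695.1 ± 9.51, 564.5 ± 52.7 and 561.1 ± 17.2 CPM in APC-intact cells. By rank correlation the first 5 were Gm12250, Ifi47, Col3a1, Ifi27l2a and Ifi44 instead, with 0 of 5 shared.

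Some of the collagens that these proteins bind were lower after doxycycline too. Of 11 fibrillar and fibril-associated collagen genes tested, 4 were lower and 1 higher at 24 h and 5 lower and 0 higher at 48 h in APC-deleted cells, and 5 and then 6 were lower with 0 higher in APC-intact cells. Of all genes tested, 3.77 to 7.54% were called lower and 1.39 to 4.52% higher in these comparisons. Col3a1 fell in all 4 comparisons, by 0.64 ± 0.0626 and 0.75 ± 0.0627 on the log2 scale in APC-deleted cells and by 0.54 ± 0.0625 and 0.68 ± 0.0627 in APC-intact cells. Col6a1 and Col6a2, chains of the microfibril collagen VI, fell in the same 4. Between the untreated lines 4 collagens were higher and 3 lower, among them Col1a1 at 0.91 ± 0.0576 and Col6a3 at −3.66 ± 0.184. There, 13.4% of all genes tested were called higher and 13.8% lower.

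Of 8 proteases known to cleave these core proteins, 3 and 4 were lower and 0 higher at 24 and 48 h in APC-deleted cells, and 4 and 5 were lower and 0 higher in APC-intact cells. The shares of all genes called, for these counts and the TGF-beta counts below, are those given for the collagens. The collagenase Mmp13 fell by 0.92 ± 0.131 at 48 h in APC-deleted cells and by 1.33 ± 0.141 in APC-intact cells on the log2 scale, and the stromelysin Mmp3 by 1.32 ± 0.195 in APC-deleted cells and 1.23 ± 0.202 in APC-intact ones. Between the untreated lines 6 proteases were higher and 1 lower, the gelatinase Mmp2 at −5.74 ± 0.145. Of 15 TGF-beta family ligands, receptors and regulators, 3 were lower after doxycycline in each of the 4 comparisons, with 0 higher at 24 h and 1 at 48 h in each line. Bmp2 and Bmp4 were among them each time, Bmp2 at −1.21 ± 0.112 in APC-deleted cells and −0.45 ± 0.11 in APC-intact ones at 48 h. Between the untreated lines 6 of the 15 were higher and 2 lower, with the latent TGF-beta binding protein gene Ltbp2 at 1.68 ± 0.0697. Of 13 TGF-beta target genes, 3 and 2 were lower and 1 and 0 higher at 24 and 48 h in APC-deleted cells, and 3 and 4 lower with 1 higher each in APC-intact cells.

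Some of the enzymes that build the sugar chains were called after doxycycline or between the lines. Like the counts of the other lists, theirs are descriptions, beside 5.64 to 11.3% of all genes called after doxycycline and 27.3% between the untreated lines. Of 18 chondroitin and dermatan sulfate genes, 1 and 3 were lower and 0 higher at 24 and 48 h in APC-deleted cells, and 0 and 3 lower with 0 and 1 higher in APC-intact cells. Between the untreated lines 3 were higher and 5 lower, led by the sulfotransferase Chst15 at −5.31 ± 0.133 and B3gat3, which completes the linker of every such chain, at −1.19 ± 0.0909. Of 4 keratan sulfate genes 2 were higher and 1 lower between the untreated lines, and 1 of them, Chst2, was lower after doxycycline, at 48 h in APC-deleted cells. Among 7 receptors that bind decorin or biglycan, Egfr was higher in untreated APC-deleted cells (0.99 ± 0.0832) and 3 were lower, including Tlr2 (−0.41 ± 0.0766) and the ATP-gated channel P2rx7 (−0.46 ± 0.0646). After doxycycline, 0 receptors were called at 24 h in either line, and at 48 h 2 were lower and 1 higher in APC-deleted cells and 1 each way in APC-intact cells. Of 11 other matrix and surface proteoglycans 2 were lower and 0 higher at each time in APC-deleted cells, and 2 and 3 lower with 0 higher in APC-intact cells. The syndecan gene Sdc2 fell in all 4, and Sdc3 was higher in untreated APC-deleted cells (1.03 ± 0.0667), where 3 of the 11 were higher and 2 lower. Of 8 further genes of the leucine-rich proteoglycan family 5 could be tested, of which Tsku and Chadl were higher in untreated APC-deleted cells. After doxycycline 1 of the 5, Tsku, was called, lower at 48 h in APC-intact cells by 0.24 ± 0.0639.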

How the data were processed

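Whole-number counts per gene that the authors deposited for 18 libraries were used with the RPKM column beside them. STAR, HTSeq and the mm10 build are named in the submitters' processing notes; their versions and the strand setting are not given in the sources used here. The deposited RPKM values were found to divide each count by exon length and by all reads of the library, entries that name no gene included, and served only for levels between genes. Such entries took 22.9 to 25.5% of each library (reads in no gene 4.70 to 7.01%) and entered neither library sizes nor tests. The 10 members, the gene lists, the marker lists and the comparisons were chosen with earlier results of these data known.

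The test was edgeR 4.0.16 under R 4.3.3 (filterByExpr by group, TMM factors, a design with 1 term for each group, fitted to all 18 libraries, robust glmQLFit, glmQLFTest), with Benjamini-Hochberg adjustment over 15006 genes at 0.05. CPM used TMM factors, log2 CPM a prior count of 2. No replicate pair agreed within sampling noise (chi-square divided by its degrees of freedom, 7.9 to 81), and intervals include the spread among libraries. The rule for named genes took the members, the tested genes within 500 kb of Aspn, the 5 genes most correlated with it and up to 3 genes of smallest adjusted p per list and comparison; a part of them is given. The alternatives were DESeq2 1.42.0, DESeq-style size factors, no filter, a replicate block, only the groups compared and leaving out each library; leaving out the 2 libraries that stood apart was chosen after seeing the data. The edgeR and DESeq2 fits were checked on simulated data for APC-intact cells at 24 h against untreated, with changes put only into genes above a floor on mean count. The other comparisons and steps were not simulated. Promoter windows are RefSeq's (GRCm38.p6), and overlaps are from GENCODE M21. Figures were drawn with matplotlib 3.10.9.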

Additional observations from a re-analysis of the deposited data

How the results depend on the processing

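Of 64 fold changes of single members, 64 kept direction and side of the threshold with DESeq-style size factors. The number was 63 with a replicate block, 62 with no filter and 60 with DESeq2. It was 55 with only the groups compared and 55 without the 2 libraries that stood apart. The 64 cover Aspn, Ogn, Omd, Dcn, Bgn, Lum and Prelp in every comparison, and Podn between the untreated lines only. Fmod, Ecm2 and the other comparisons of Podn were left out of them. The Podn call at 48 h with the replicate block, given below, is therefore not among the changes counted. With only the groups compared, 2 members were called between the lines at 48 h, 2 in APC-intact cells at 24 h and 3 in APC-deleted cells at 48 h. At 48 h against 24 h 1 member (Ogn) was called by DESeq2 and 1 without the libraries that stood apart. By Spearman correlation 0 of the 5 genes most like Aspn were kept. Leaving out each library gave 2 to 5 called members between the untreated lines, 2 to 3 at 48 h, 4 to 5 at each time in APC-deleted cells, 4 to 6 at 24 h and 5 to 6 at 48 h in APC-intact cells, 0 to 1 for 48 h against 24 h and 0 for both differences.

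Among the fold changes counted above, signs turned only for uncalled log2 values near 0. Bgn at 48 h against 24 h was −0.009 with no filter, −0.006 without the libraries that stood apart and −0.0342 to 0.0276 with each library left out. Without the libraries that stood apart, Omd and Dcn between the lines at 48 h were 0.0073 and 0.003, and the differences of the 48 h response were 0.0022 for Ogn and 0.0299 for Dcn. With each library left out, Dcn ran from −0.0902 to 0.0129 between the untreated lines and −0.1307 to 0.0113 at 48 h, Omd from −0.092 to 0.2925 and −0.2108 to 0.016, the 24 h difference of Dcn from −0.0784 to 0.0326, and the 48 h differences from −0.1046 to 0.0378 (Dcn), −0.2332 to 0.01 (Ogn) and −0.3468 to 0.0376 (Omd). The cause was not tested.

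Whether the replicate numbers pair the libraries was not settled. Of 45 same-numbered pairs only 4 had deviations correlated over 0.1 (−0.088 to 0.237), yet 12 of 18 libraries correlated best with their own number. With the replicate block 4 members were called between the untreated lines, Ogn joining at −0.28 (adjusted p = 0.0306), and 5 at 48 h, Podn joining at 1.13 (adjusted p = 0.0480); the other 7 counts were unchanged. Depth limits Fmod, Podn and Ecm2, at 35 reads or fewer in every library.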
